A study of Mus musculus with 2 samples.

Results

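Rxfp1, Rxfp2 and Rxfp3 encode relaxin family receptors, and the rows of the count matrix with these 3 gene symbols, of 32285 gene rows, are described here. The genes were chosen from earlier results on the same nuclei, in which Rxfp1 led in KNDy-like and Rxfp2 in dopaminergic nuclei, so their levels by neuron class are a description and carry no test. All nuclei came from male C57BL/6J mice aged 10 to 12 weeks, for which the labels name no treatment or transgene. The sort kept those stained for NeuN, which marks the nuclei of neurons, and the 10x Genomics platform gave 1 gene expression library that pools the animals. Antibody barcodes (hashtags) labelled ARC and PVH, abbreviations used for the arcuate and the paraventricular nucleus of the hypothalamus, tell 2 preparations apart, but not the mice. The series describes its tissue as micro-dissected arcuate nucleus only, so what the PVH preparation was is known from its hashtag label alone.

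The relaxin receptors are G protein-coupled receptors that fall into a pair of structural groups. RXFP1 and RXFP2 carry a large extracellular domain of leucine-rich repeats, bind relaxin and insulin-like peptide 3 respectively as their main ligands, and can raise cyclic AMP through stimulatory G proteins. RXFP3 lacks that domain, binds relaxin-3, a peptide made mainly by neurons of the brainstem, and couples to inhibitory G proteins. In the hypothalamus relaxin peptides are known for effects on drinking, feeding and reproductive hormone release. KNDy neurons of the arcuate nucleus are named for kisspeptin, neurokinin B (Tac2) and dynorphin and drive pulses of gonadotropin-releasing hormone, and its dopaminergic neurons restrain prolactin release.

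In the GENCODE M21 annotation of GRCm38, Rxfp1 (ENSMUSG00000034009) lies on chromosome 3 from 79641611 to 79737880 on the minus strand, with up to 18 exons. Rxfp2 (ENSMUSG00000053368) lies on chromosome 5 from 150018675 to 150082184 on the plus strand, also with up to 18 exons. Rxfp3 (ENSMUSG00000060735) lies on chromosome 15 from 11033717 to 11037991 on the minus strand and has 1 exon. Introns make up most of Rxfp1 and Rxfp2, of which 10.4% and 8.96% is exonic. The sources used here do not say whether intronic reads were counted, so levels are compared between groups of nuclei for one gene at a time and never between the genes. The antisense gene Gm42557 overlaps Rxfp2, and nothing read for this work states the strand setting of the counting.

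Among 11409 barcodes, the filters of the study left 10170 nuclei. Of these, 3767 carried the ARC hashtag (median 4827 unique molecular identifiers, or UMIs, which count captured RNA molecules) and 3074 the PVH hashtag (median 5039). Snap25, a synaptic gene of neurons, had a UMI in 91.7% and 92.6% of them. In raw counts the hashtags were not far apart. The medians were 95 ARC and 77 PVH counts in nuclei called ARC, and 49 ARC and 125 PVH counts in nuclei called PVH. Sim1, a transcription factor of the paraventricular nucleus, was at 109 UMIs per 1000000 UMIs (CPM) with the PVH and 10.6 CPM with the ARC hashtag, which follows the labels. Oxt, the oxytocin gene, had a UMI in 92.6% of ARC and 92.8% of PVH nuclei and Agrp in 54.0% and 54.1%, like shares as free RNA gives, and the part of free RNA in other genes was not tested. With 1 pooled library there are no replicates. Intervals given here are exact 95% Poisson intervals for CPM and exact binomial intervals for shares of nuclei. For ratios they are exact binomial intervals of how the UMIs divide. All cover counting error only, not differences between mice. Those for CPM and ratios take UMIs as independent, so the spread between nuclei is not in them.

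The first comparison asked how the receptors differ between the preparations. Rxfp1 was far higher with the ARC hashtag and Rxfp3 higher with the PVH hashtag, while the Rxfp2 levels were closer. Rxfp1 was at 40.5 CPM in ARC nuclei (interval 37.7 to 43.4, from 789 UMIs in 339 nuclei) and at 3.94 CPM in PVH nuclei (3.05 to 5.02, from 66 UMIs in 49 nuclei). It was 10.3-fold higher in ARC nuclei (7.98 to 13.4) and ranked 15 of the 18112 genes with at least 20 UMIs over both preparations. Of these genes 2.68% were more than 2-fold higher in ARC nuclei. The share of nuclei with an Rxfp1 UMI was 9.0% against 1.59%, and 3.27% against 0.361% when each nucleus was thinned to 1000 UMIs. At a stricter hashtag call, a positive quantile of 0.99, the log2 ratio was 2.75 in place of 3.36.

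Rxfp2 was at 14.9 CPM in ARC nuclei (13.2 to 16.7, from 290 UMIs in 105 nuclei) and at 8.37 CPM in PVH nuclei (7.04 to 9.87, from 140 UMIs in 48 nuclei). The ratio was 1.78-fold (1.45 to 2.19). A single PVH nucleus held 23 of the 140 UMIs, and without it the log2 ratio was 1.09 in place of 0.83. As a mean over nuclei, or with each nucleus thinned to 1000 UMIs, it was 1.03. These 3 values pass 2-fold, as does the upper bound of the interval. Other settings stayed under 2-fold, with a log2 ratio of 0.64 (0.31 to 0.98) at a positive quantile of 0.9 and 0.87 at 0.99. The log2 ratio was 0.76 without upper limits on genes and counts, and 0.77 at a mitochondrial share of at most 5%. Rxfp3 was the sparsest, at 0.770 CPM in ARC nuclei (0.431 to 1.27, 15 UMIs in 15 nuclei) and 3.59 CPM in PVH nuclei (2.74 to 4.62, 60 UMIs in 57 nuclei). It was 4.66-fold higher in PVH nuclei (2.61 to 8.84), where 3.36% of genes were more than 2-fold higher. Both preparations share a library, but cell makeup differs between them, and fewer cells of a type and less RNA per cell cannot be told apart in these sums. When both hashtags were clustered together, the 5 clusters above 40 CPM of Rxfp1 with the ARC hashtag held 1356 ARC nuclei and 30 PVH nuclei. Rxfp1 in them was at 103 CPM (95.7 to 111) with the ARC and 71.9 CPM (37.2 to 126) with the PVH hashtag, from 12 UMIs in 5 nuclei. In the 16 other clusters it was at 5.59 CPM (4.36 to 7.06) and 3.26 CPM (2.45 to 4.25). Among these others, the cluster of AGRP-like neurons was at 9.30 CPM with the ARC and 47.5 CPM (9.80 to 139) with the PVH hashtag. The PVH value came from 3 UMIs in 11 nuclei. The 5 clusters were chosen by their ARC level and Rxfp1 helped form them, so the gap between hashtags is not read from them. Its cause was not tested.

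**Figure D1:**
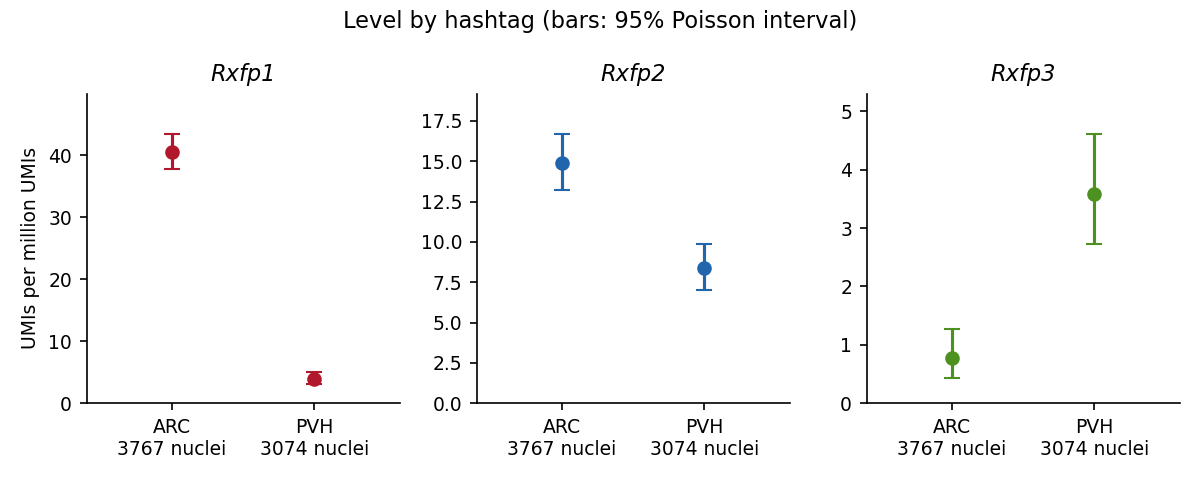
Level of each receptor gene in UMIs per 1000000 UMIs (linear axes from 0) in nuclei with the ARC and with the PVH hashtag. Points are summed levels of 1 pooled library and bars are 95% Poisson intervals; Rxfp1 stands at 40.5 against 3.94, Rxfp2 at 14.9 against 8.37 and Rxfp3 at 0.770 against 3.59.

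The second comparison placed the receptors in neuron classes. Nuclei with the ARC hashtag formed 14 clusters, numbered by size, of which 13 with 3738 nuclei were neuronal and 1 with 29 nuclei had markers of astrocytes and tanycytes. Cluster 2 (548 nuclei) passed as neuronal, with Snap25 at 608 CPM against 715 CPM in the other neuron clusters, but had the oligodendrocyte gene Sox10 first among its leading genes, with Sim1 also among them. Its 5 oligodendrocyte markers summed to 283 CPM, the highest of the ARC neuron clusters (range 49.6 to 283). When both hashtags were clustered together, 298 of its nuclei joined a cluster that also held 253 nuclei of PVH cluster 2 and 168 of PVH cluster 9. By marker genes the neuron clusters included AGRP-like (cluster 1), POMC-like (4), KNDy-like (8), VMH-like (11) and dopaminergic-like (12) nuclei, the VMH being the ventromedial nucleus. The KNDy-like cluster had Tac2 at 150 CPM, 13.8-fold over the other neurons, Esr1 at 5.16-fold, Tacr3 at 7.46-fold and Pdyn at 4.98-fold. Its Kiss1 rested on only 3 UMIs of 6 found with the ARC hashtag, so the name stands on the other markers. The dopaminergic-like cluster had the dopamine transporter gene Slc6a3 at 38.7-fold, Th, the rate-limiting enzyme of dopamine synthesis, at 10.5-fold, Ddc at 6.07-fold and Slc18a2 at 5.78-fold. Rxfp1, Rxfp2 and Gm42557 were among the 2000 variable genes that formed the clusters, and Rxfp3 was not.

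Rxfp1 was highest in the KNDy-like cluster, at 281 CPM (250 to 315), with 295 UMIs in 98 of 211 nuclei. Next were cluster 5, led by Gm35041 and Dock5, at 94.9 CPM (125 UMIs in 51 of 281 nuclei), and the POMC-like cluster at 73.5 CPM (121 UMIs in 54 of 282 nuclei). Cluster 3, led by Unc13c and Tmem26, was at 57.5 CPM, cluster 9, led by Chat, at 44.4 CPM, and cluster 7, led by Gm21847 and Smoc2, at 40.5 CPM. These 6 clusters held 735 of the 789 Rxfp1 UMIs of neurons, or 93.2%.

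The 7 other neuron clusters were much lower. The AGRP-like cluster was at 7.63 CPM with 28 UMIs in 19 of 678 nuclei, cluster 6 at 7.12 CPM and cluster 2 at 4.64 CPM. Rxfp1 was at 2.13 CPM in the dopaminergic-like cluster, 1.02 CPM in cluster 10 and 0.931 CPM in the VMH-like cluster, which rest on 2, 1 and 1 UMIs. Cluster 13 had none in 132 nuclei, which allows up to 4.46 CPM. In this order only 2 gaps between neighbours exceeded counting error, the KNDy-like cluster over cluster 5 (2.96-fold, 2.40 to 3.68) and cluster 7 over the AGRP-like cluster (5.31-fold, 3.28 to 8.74).

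Against all other ARC neurons the KNDy-like cluster was 10.5-fold higher in Rxfp1 (9.02 to 12.1), at 281 against 26.9 CPM. Rxfp1 ranked 27 of 16480 genes by this fold, and 4.73% of these genes were more than 2-fold higher in the cluster. The share of nuclei with an Rxfp1 UMI was 46.4% at a median depth of 4582 UMIs, or 20.9% after thinning. It was 0.518% in the VMH-like cluster at a median depth of 5268, and 0 of 29 in the non-neuronal cluster at 2562, which allows a share of up to 10.3%. Of the lists for other cell types, the 4 oligodendrocyte precursor markers summed to 31.5 CPM in the KNDy-like cluster (33 UMIs, 31 of them of Vcan), the highest of the neuron clusters, whose range was 2.97 to 31.5. The rest of these UMIs were of Pdgfra, while Cspg4 and Olig2 were at 0 there. The part of these markers in the Rxfp1 level was not tested.

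Within the KNDy-like cluster Rxfp1 was uneven. No UMI was found in 113 nuclei, 1 in 29, 2 in 20 and 3 or more in 49, with at most 9 in 1 nucleus. Median depth was alike in nuclei with and without Rxfp1, at 4622 and 4539 UMIs. By UMIs of Tac2 in the same nucleus, Rxfp1 in this cluster was at 245 CPM with none, 265 CPM with 1 and 420 CPM with 2 or more. By UMIs of Esr1 it was at 257, 254 and 297 CPM in the same order. Pdyn ran the other way, at 299 CPM (265 to 336), 165 CPM (85.2 to 288) and 134 CPM (53.8 to 276), and by Tacr3 the levels were 277, 335 and 189 CPM with no order. Kiss1 had a UMI in only 3 nuclei of the cluster.

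Over all ARC neurons Rxfp1 was higher with more UMIs of either marker, at 33.8, 79.4 and 387 CPM by Tac2 and 21.4, 50.3 and 117 CPM by Esr1, the oestrogen receptor alpha gene. By Pdyn it was at 38.7, 92.2 and 111 CPM and by Tacr3 at 38.1, 93.7 and 124 CPM. Outside the KNDy-like cluster the levels by Esr1 were lower and also ordered, from 18.7 CPM (16.4 to 21.2) with no Esr1 UMI to 34.8 CPM (28.7 to 41.8) with 1 and 63.3 CPM (53.2 to 74.8) with 2 or more. By Tac2 they were not, at 27.3 CPM (24.9 to 29.9) without and 18.6 CPM (11.2 to 29.0) with 1 UMI, and the 4 nuclei with 2 or more held 2 Rxfp1 UMIs, at 96.9 CPM (11.7 to 350). Median depth in these Esr1 groups was 4800, 4951 and 5107.5 UMIs. By cluster, Esr1 ranged from 84.5 to 497 CPM in the 6 clusters high in Rxfp1. It was between 23.7 and 61.0 CPM in 6 of the 7 others, and at 131 CPM in the dopaminergic-like cluster, where Rxfp1 was near 0.

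**Figure D2:**
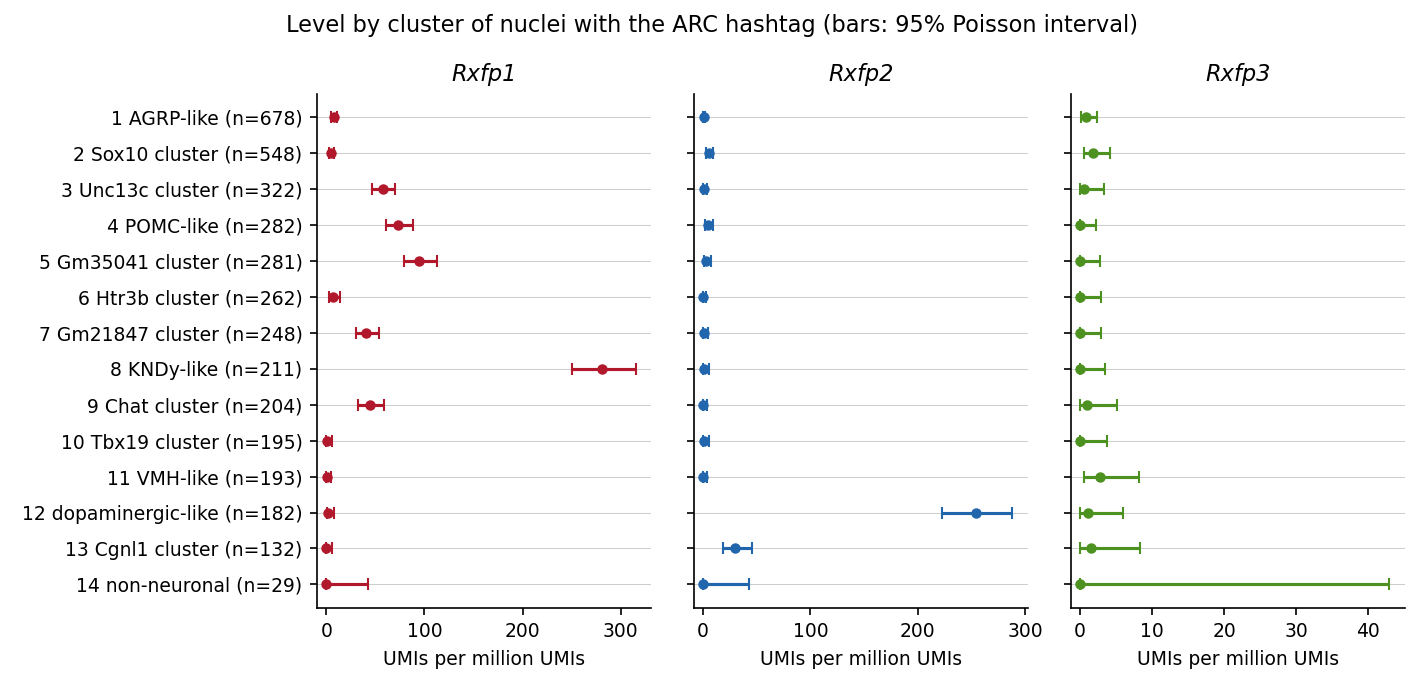
Level of each receptor gene in UMIs per 1000000 UMIs (linear axes) in the 14 clusters of nuclei with the ARC hashtag, named by class or by their leading gene, with the number of nuclei. Points are summed levels and bars 95% Poisson intervals; Rxfp1 is highest in cluster 8 at 281, Rxfp2 in cluster 12 at 254, and no Rxfp3 level passes 2.79.

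The clusters high in Rxfp1 differed in their transmitter genes. Slc17a6, which encodes the vesicular glutamate transporter 2, was at 225 CPM in the KNDy-like cluster and 116 CPM in cluster 7. The POMC-like cluster lay between in Slc17a6, at 60.2 CPM, and had Gad2, an enzyme of GABA synthesis, at 136 CPM. Its Slc32a1, the vesicular GABA transporter gene, was only at 14.6 CPM. That is below the 27.6 CPM of the KNDy-like cluster and the 23.8 CPM of cluster 7. Slc17a6 was at 7.87 CPM in cluster 3, 12.9 CPM in cluster 5 and 13.9 CPM in cluster 9. In the same order Gad2 was at 120, 167 and 203 CPM and Slc32a1 at 48.4, 46.3 and 50.9 CPM. Over all ARC neurons, the 339 nuclei with Rxfp1 had Slc17a6 at 89.6 CPM (76.4 to 104), against 41.9 CPM in the rest. Their Gad2 was at 135 against 125 CPM and Gad1, another enzyme of GABA synthesis, at 53.3 against 65.5 CPM. Their Slc32a1 was lower, at 26.4 CPM (19.4 to 35.0) against 38.7 CPM.

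Rxfp2 was highest in the dopaminergic-like cluster, at 254 CPM (223 to 288), with 238 UMIs in 76 of 182 nuclei. This cluster held 82.1% of the Rxfp2 UMIs of ARC nuclei. Its 5 oligodendrocyte markers summed to 117 CPM, with 1 of them at 0, the highest of the ARC neuron clusters after cluster 2. Their part in the Rxfp2 level was not tested. Cluster 13, led by Cgnl1, followed at 29.7 CPM with 20 UMIs in 8 of 132 nuclei, 7 of them in 1 nucleus. Cluster 2 was at 5.35 CPM with 15 UMIs, of which 8 came from 1 nucleus, and at 2.51 CPM (1.01 to 5.16) without it. Next came the POMC-like cluster at 4.25 CPM with 7 UMIs and cluster 5 at 3.04 CPM with 4 UMIs. Rxfp2 was at 1.02 CPM or less in the 8 other neuron clusters. It was at 0.953 CPM with 1 UMI in the KNDy-like cluster and at 0 in clusters 6, 9 and the VMH-like cluster, which allows up to 2.37, 2.77 and 2.79 CPM. The gaps from the dopaminergic-like cluster to cluster 13 (8.54-fold, 5.40 to 14.2) and from there to cluster 2 (5.56-fold, 2.71 to 11.7) exceeded counting error, and no later gap did.

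Against all other ARC neurons, Rxfp2 in the dopaminergic-like cluster was at 254 against 2.82 CPM, or 90.2-fold higher (66.6 to 124). It ranked 2 of 16480 genes by fold, of which 4.54% were more than 2-fold higher. A Rxfp2 UMI was found in 41.8% of the cluster at a median depth of 4826.5 UMIs, or 18.4% after thinning, and in 0.474% of the KNDy-like cluster at 4582. At a positive quantile of 0.99 the log2 ratio was 7.69 (6.52 to 9.16) in place of 6.49, with the level in the cluster at 179 CPM. When nuclei with at least 2 UMIs of Slc6a3 or Th were taken in place of the cluster the log2 ratio was 4.77. At resolutions of 0.8 and above it was 7.17 to 7.18, against 6.49. With the 3 receptor genes left out of the clustering, alternatives chosen after seeing the data, it was 6.49 at 0.8 and 6.69 at 1.2. The value at 1.2 pools 2 clusters that took the name, 91 nuclei at 456 CPM and 137 at 36.8 CPM, so it does not compare with the 7.18 of a single cluster of 93 nuclei.

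Rxfp2 was uneven within the dopaminergic-like cluster. At a finer resolution of 0.8 the cluster divided into 93 nuclei with 231 Rxfp2 UMIs, at 452 CPM (396 to 515), and 89 nuclei with 7, at 16.4 CPM (6.60 to 33.8). The first set also held nearly all of the transporter, with Slc6a3 at 97.9 against 2.34 CPM and Th at 123 against 14.1 CPM, while Ddc was at 292 against 141 CPM and Slc18a2 at 208 against 58.6 CPM. The median depth was 5243 and 4463 UMIs. Clustering with the 3 receptor genes left out did not divide the nuclei at 0.8 but did so at 1.2, into 91 nuclei at 456 CPM and 89 at 16.4 CPM of Rxfp2. With the antisense gene Gm42557 left out as well, a choice made after seeing the data, the nuclei again divided at 1.2 and not at 0.8, into 89 at 439 CPM (382 to 502) and 92 at 45.5 CPM (27.8 to 70.3) of Rxfp2. Within the whole cluster Rxfp2 was at 167 CPM in nuclei without a Th UMI, 420 CPM with 1 and 639 CPM with 2 or more, at median depths of 4801, 5016 and 5784 UMIs. By Slc18a2 it was at 168, 303 and 441 CPM, while by Slc6a3 (220, 374 and 365 CPM) and Ddc (203, 298 and 283 CPM) the nuclei with 2 or more UMIs were not above those with 1.

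Over all ARC neurons the 105 nuclei with Rxfp2 had Th at 95.9 CPM against 7.50 CPM in the rest and Slc6a3 at 64.5 against 2.02 CPM. Their Slc17a6 was at 18.2 against 47.3 CPM and their Gad1 at 102 CPM (78.6 to 131) against 63.1 CPM. The other GABA genes were not higher, with Gad2 at 119 CPM (93.1 to 150) against 126 CPM. Slc32a1 was at 28.1 CPM (16.4 to 45.0) against 37.9 CPM. Not every cluster with Th had Rxfp2. Cluster 9 had Th at 44.4 CPM (48 UMIs in 43 of 204 nuclei) and Ddc at 74.9 CPM, but no Rxfp2 UMI. Gm42557, the antisense gene that overlaps Rxfp2, had the same pattern, at 108 CPM in the dopaminergic-like cluster and 19.3 CPM in cluster 13, and at most 1.86 CPM in any other neuron cluster. It was found in 47.6% of nuclei with Rxfp2 and 0.633% of those without. Reads of the gene and its antisense partner may not be separable, so neither pattern is independent of the other.

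**Figure D3:**
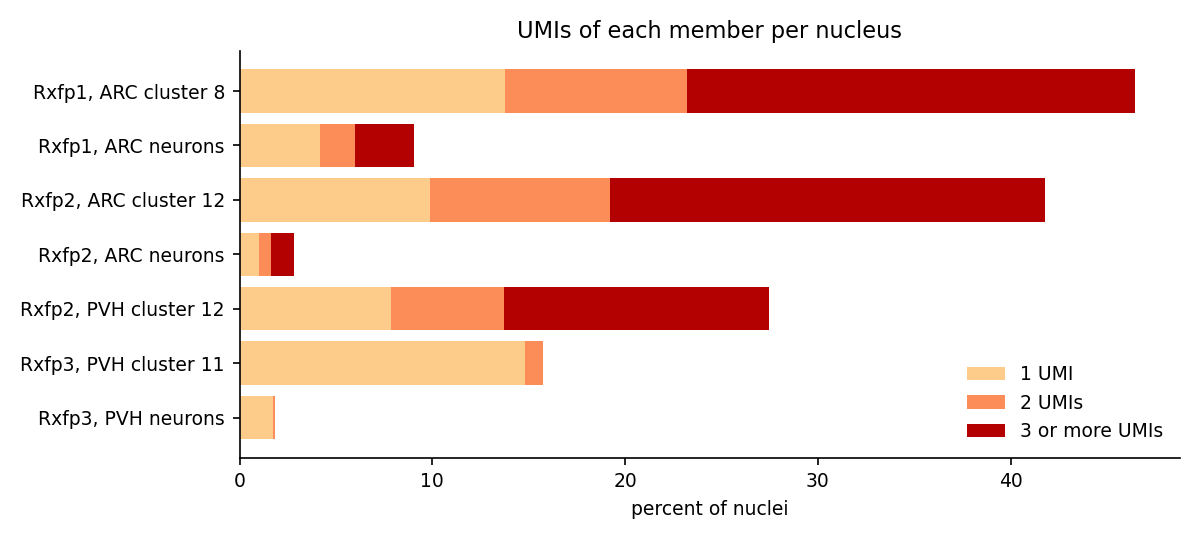
Percent of nuclei with 1, 2 and 3 or more UMIs of a receptor gene (stacked bars from 0) in the clusters where it was highest and in all neurons of a hashtag. In ARC cluster 8 Rxfp1 was found in 46.4% of nuclei and in ARC cluster 12 Rxfp2 in 41.8%, many with 3 or more UMIs, while Rxfp3 gave mostly single UMIs.

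Rxfp3 could not be placed in any ARC class. Its 15 UMIs lay in 15 nuclei of 7 clusters, with 5 in cluster 2, 3 each in the VMH-like and AGRP-like clusters and 1 each in clusters 3, 9, 13 and the dopaminergic-like cluster. Cluster 2 is mixed, with oligodendrocyte markers and also Sim1 at 61.0 CPM against 2.11 CPM in the other neuron clusters. When both hashtags were clustered together, 1 of its 5 Rxfp3 UMIs came from 34 nuclei in a Sim1-like cluster. Another 1 came from 9 nuclei in the cluster that took all 108 nuclei of PVH cluster 11. Of the rest, 2 came from 298 nuclei in an unnamed cluster and 1 from 6 nuclei in the dopaminergic-like cluster. The highest level, 2.79 CPM in the VMH-like cluster (0.576 to 8.16), was 4.27-fold that of the other neurons with an interval of 0.773 to 15.8. Without cluster 2 in the comparator, an alternative chosen after seeing the data, the log2 ratio was 2.63 (0.05 to 4.76) in place of 2.09 (-0.37 to 3.98). No gap between neighbouring clusters exceeded counting error, and at 0 of 211 KNDy-like nuclei a level of up to 2.86 CPM is allowed. Rxfp3 was below 20 UMIs and was not ranked among the genes of this comparison, of which 4.44% were more than 2-fold higher in the VMH-like cluster.

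Nuclei with the PVH hashtag also formed 14 clusters, which are given here by number. All passed as neuronal by the rule used, but cluster 2 (442 nuclei) had the oligodendrocyte genes Sox10 and Mobp among its leading genes and the 5 oligodendrocyte markers at 354 CPM, the highest of the PVH clusters (range 33.6 to 354). Its neuronal marker Snap25 was at 624 CPM against 694 CPM in the other PVH clusters. Rxfp1 was low throughout, from 0 in cluster 10 to 8.11 CPM in cluster 5 (4.05 to 14.5, 11 UMIs), and no gap between neighbours in this order exceeded counting error. Further apart in the order, the intervals of cluster 1 (0.0933 to 2.78) and cluster 3 (0.135 to 4.02) lay below that of cluster 5. Cluster 5 was 2.27-fold higher than the other PVH neurons (1.07 to 4.38), and 3.4% of genes were more than 2-fold higher there. Rxfp2 was at 1.47 CPM in cluster 5 (2 UMIs), in place 5 of the 14 clusters, whose median was 0.748 CPM. The other PVH neurons together were at 8.97 CPM, but 109 of their 138 UMIs lay in cluster 12, so the pooled ratio, past 2-fold lower as for 8.68% of genes, does not set cluster 5 below the rest. Rxfp3 was at 0 in cluster 5, which allows up to 2.21 CPM against 3.90 CPM in the other PVH neurons.

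Rxfp2 in PVH nuclei was again held by 1 cluster. Cluster 12, with 102 nuclei, was at 186 CPM (153 to 225) with 109 UMIs in 28 nuclei, and cluster 7 followed at 7.78 CPM with 7 UMIs, 23.9-fold lower (11.2 to 60.9). Against all other PVH neurons cluster 12 was at 186 against 1.92 CPM, 97.0-fold higher (64.5 to 150), the highest fold of 16253 genes, of which 4.92% were more than 2-fold higher. Of its 109 UMIs 23 came from 1 nucleus, and the log2 ratio was 6.60 with and 6.28 without it. A Rxfp2 UMI was found in 27.5% of the cluster at a median depth of 5297 UMIs, or 10.7% after thinning, and in 0 of 184 nuclei of cluster 8 at 5713.5, which allows a share of up to 1.63%. Without cluster 2 in the comparator, an alternative chosen after seeing the data, the log2 ratio was 6.40 in place of 6.60. Rxfp1, Rxfp2 and Gm42557 were among the variable genes that formed the PVH clusters. Rxfp2 and Gm42557 also headed the leading genes of cluster 12, so the rank of Rxfp2 is not independent of the clustering. With the receptor genes left out, but not Gm42557, the log2 ratio was 6.61, an alternative also chosen after seeing the data. Within cluster 12 the nuclei with Rxfp2 were deeper, at a median of 6422.5 against 4872.5 UMIs. Rxfp2 was also at 0 in clusters 2, 11, 13 and 14.

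PVH cluster 12 lacked the transporter marker of dopaminergic neurons. Over all PVH neurons Rxfp2 was not higher with more UMIs of Th, at 8.64 CPM (7.26 to 10.2) with no Th UMI, 1.92 CPM (0.0485 to 10.7) with 1 and 0 in the 19 nuclei with 2 or more, which allows up to 25.2 CPM. By Slc6a3 it was at 8.10 CPM without and 81.9 CPM (26.6 to 191) with 1 UMI, the latter from 5 Rxfp2 UMIs in 2 of 10 nuclei. In cluster 12 Slc6a3 was at 0, which allows up to 5.12 CPM, Sim1 was at 213 CPM, Otp at 52.9 CPM and Trh, which encodes thyrotropin-releasing hormone, at 58.1 CPM, and Gad1 and Gad2 were 4.79-fold and 4.54-fold lower than in the other PVH neurons. When nuclei of both hashtags were clustered together, 63 of its nuclei joined a Sim1-like cluster and held 107 Rxfp2 UMIs, at 296 CPM (243 to 358), and 38 joined another cluster with 1 UMI, at 4.65 CPM. Sim1 was at 197 CPM in the first set and 251 CPM in the second, while Trh was at 30.5 against 107 CPM. Rxfp2 and Gm42557 helped form the clusters of both hashtags, so this division is not independent of Rxfp2. With PVH nuclei clustered alone and the receptor genes left out, 101 nuclei stayed in 1 cluster at resolutions of 0.8, 1.2 and 2.0. They held 109 Rxfp2 UMIs, at 190 CPM (156 to 229). In the clustering of both hashtags, 1 dopaminergic-like cluster took 181 nuclei of ARC cluster 12, all 132 of ARC cluster 13 and 182 of PVH cluster 7. Rxfp2 was at 157 CPM (138 to 177) in its 322 ARC nuclei and 8.20 CPM (3.30 to 16.9) in its 185 PVH nuclei. PVH cluster 7 passed the dopaminergic markers Slc6a3 (3 UMIs, at 3.34 CPM), Ddc (54.5 CPM) and Slc18a2 (48.9 CPM), with Th at 5.56 CPM. ARC cluster 13 also had 3 Slc6a3 UMIs, at 4.46 CPM, against 54.4 CPM in ARC cluster 12, with Slc18a2 at 106 CPM and Th at 20.8 CPM. Whether the ARC and PVH nuclei are of 1 class was not tested. Gm42557 was at 63.2 CPM in PVH cluster 12, so that the caution on the antisense gene holds here too.

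Rxfp3 in PVH nuclei was highest in cluster 11, led by Lgr6, at 22.3 CPM (13.2 to 35.3) with 18 UMIs in 17 of 108 nuclei. Cluster 14, led by Pla2r1, followed at 14.8 CPM (8 UMIs) and cluster 8, led by Sim2, at 7.16 CPM (8 UMIs). No gap between neighbours in this order exceeded counting error. Against all other PVH neurons cluster 11 was 8.47-fold higher (4.59 to 15.0), at 22.3 against 2.64 CPM, and 6.16% of genes were more than 2-fold higher there. The log2 ratio was 3.08, and 3.18 without cluster 2 in the comparator. Cluster 11 was also the deepest, with a median of 7133.5 UMIs per nucleus. An Rxfp3 UMI was found in 15.7% of it, and in 0 of 244 nuclei of cluster 5 at a median of 5070 UMIs, which allows up to 1.23%. After thinning, 2.24% of its nuclei and 1.68% of cluster 14 kept an Rxfp3 UMI, against 0.312% of all PVH nuclei.

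The clusters high in Rxfp3 carried markers of the paraventricular nucleus. Sim1 was at 293 CPM in cluster 11 and 384 CPM in cluster 14, and Oxt was at 1984 CPM in cluster 11 against 546 CPM in the other PVH neurons. The 7 PVH clusters that passed the Sim1 marker held 41 of the 60 Rxfp3 UMIs, at 6.34 CPM (4.55 to 8.60), against 1.85 CPM (1.11 to 2.89) in the 7 others. Clusters 11 and 14 held 26 of the 41, and the 5 other clusters with Sim1 were at 2.93 CPM (1.64 to 4.83), an interval that overlaps that of the 7 without. The largest of them, cluster 4 with 298 nuclei, had none, which allows up to 2.09 CPM. By UMIs of Sim1 in the same nucleus Rxfp3 was at 2.21, 5.21 and 7.37 CPM with 0, 1 and 2 or more, at median depths of 4811, 5352 and 5974 UMIs. By Trh it was at 3.25, 4.68 and 8.74 CPM and by Otp at 3.09, 7.73 and 7.37 CPM, and by Avp it was highest without a UMI, at 4.92 CPM against 2.91 and 3.41 CPM. Levels by Oxt are not read, since nearly all nuclei of either hashtag had an Oxt UMI. The 57 nuclei with Rxfp3 had Sim1 at 225 CPM (180 to 278) against 106 CPM and Gad1 at 15.5 CPM (5.70 to 33.8) against 48.5 CPM. The oligodendrocyte precursor list was at its highest of the PVH clusters in cluster 11, at 43.4 CPM with 3 of 4 markers at 0, and the tanycyte list too, at 130 CPM with 1 of 4 at 0. Their lowest values in a PVH cluster were 1.71 and 39.7 CPM, and their part in the Rxfp3 level was not tested.

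**Figure D4:**
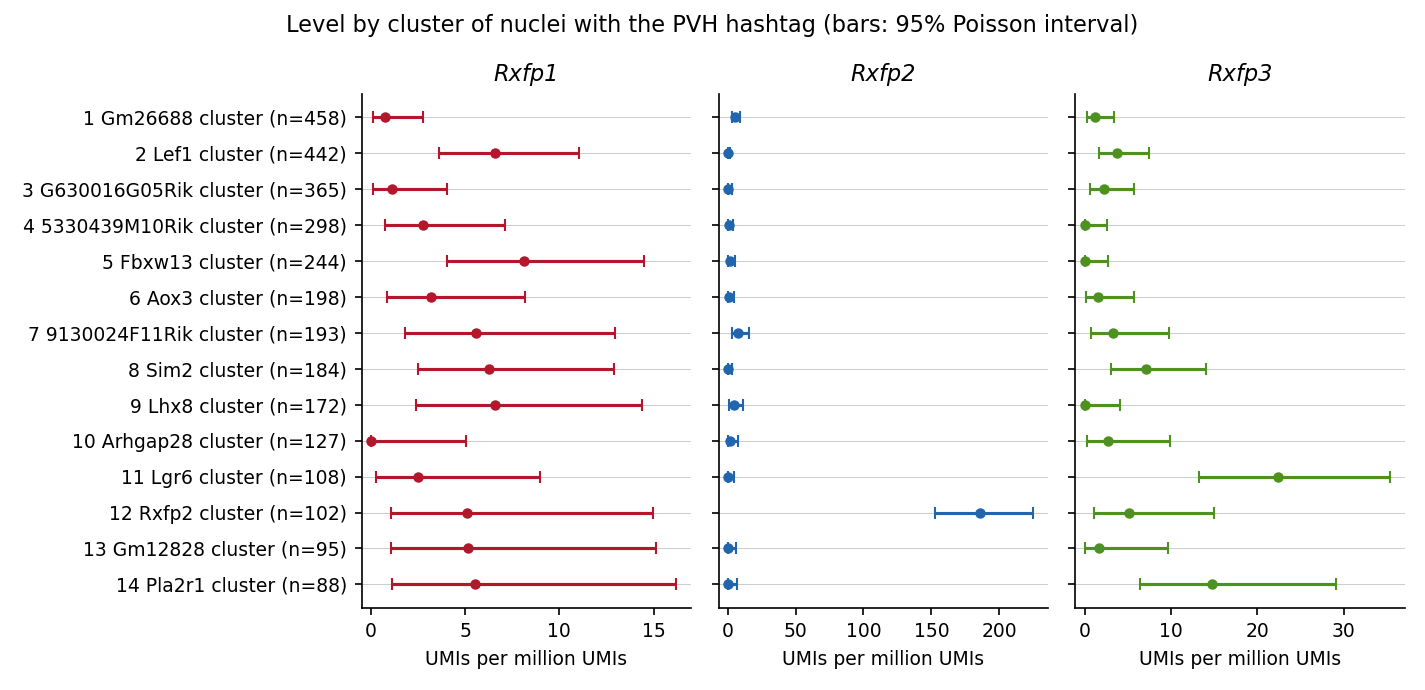
Level of each receptor gene in UMIs per 1000000 UMIs (linear axes, a different scale for each gene) in the 14 clusters of nuclei with the PVH hashtag, labelled by number, leading gene and number of nuclei. Points are summed levels and bars 95% Poisson intervals; Rxfp2 is highest in cluster 12 at 186 and Rxfp3 in cluster 11 at 22.3, while no Rxfp1 level passes 8.11.

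Few nuclei held UMIs of more than 1 receptor gene. Of 339 ARC neurons with Rxfp1 and 105 with Rxfp2, 4 had both, or 1.18% of the first (0.322 to 2.99) against 2.97% of the neurons without Rxfp1. Rxfp1 and Rxfp3 shared 1 ARC neuron, 0.295% of those with Rxfp1 (0.00747 to 1.63) against 0.412% of the others. Rxfp2 and Rxfp3 shared 2, or 1.90% of those with Rxfp2 (0.232 to 6.71) against 0.358% of the others. In PVH nuclei each pair shared 1 nucleus, of 49 with Rxfp1, 48 with Rxfp2 and 57 with Rxfp3, and the shares were 2.04% against 1.55% for Rxfp1 with Rxfp2, 2.04% against 1.85% for Rxfp1 with Rxfp3 and 2.08% against 1.85% for Rxfp2 with Rxfp3. In each of the 6 pairs the interval of the share included the share in the other neurons, so no difference was detectable at this depth.

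**Figure D5:**
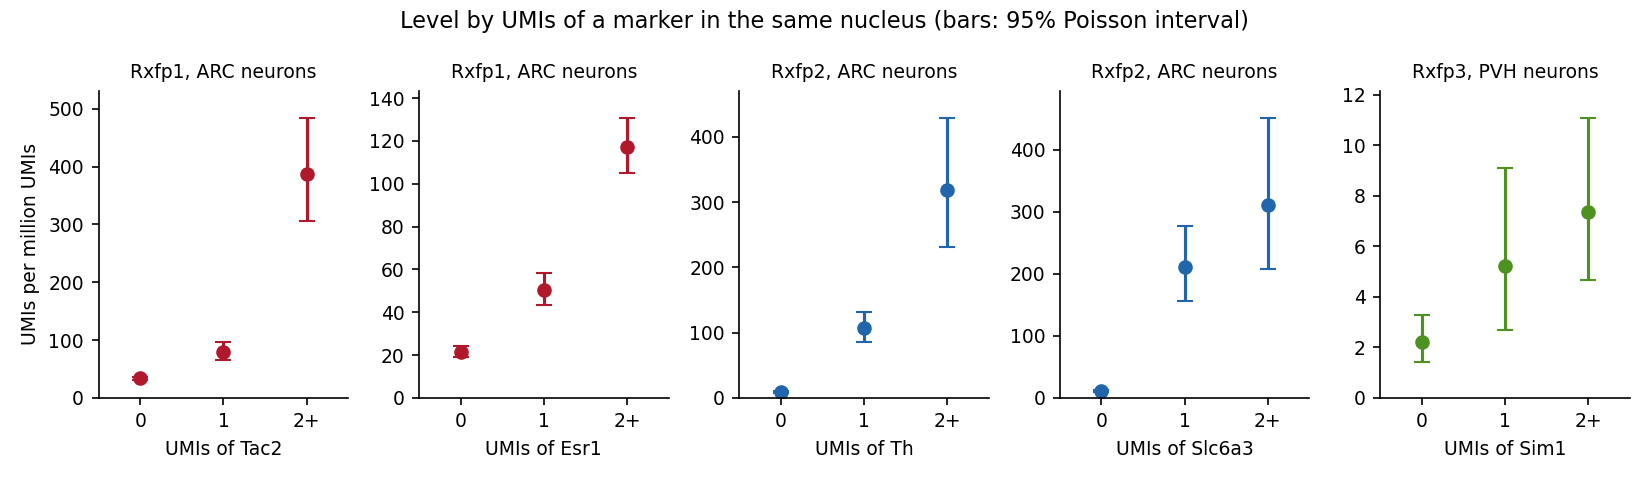
Level of a receptor gene in UMIs per 1000000 UMIs (linear axes from 0) in neurons grouped by 0, 1 and 2 or more UMIs of a marker gene in the same nucleus, with 95% Poisson intervals. In ARC neurons Rxfp1 goes from 33.8 to 387 by Tac2 and from 21.4 to 117 by Esr1, Rxfp2 from 8.67 to 319 by Th and from 11.1 to 312 by Slc6a3, and in PVH neurons Rxfp3 goes from 2.21 to 7.37 by Sim1.

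The ligand genes of the family gave few UMIs in these nuclei. Insl3, the main ligand of RXFP2, and the receptor gene Rxfp4 had no UMI with either hashtag, which allows up to 0.154 CPM in ARC nuclei. Rln3, the ligand of RXFP3, had 3 UMIs in ARC and 0 in PVH nuclei, and Rln1 had 12 and 14. Insl5 had 34 and 40 UMIs and Insl6 19 and 11. None of the 3 ligands with at least 20 UMIs differed by more than 2-fold between the preparations.

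The coupling genes were then compared between the preparations. Both stimulatory and all 5 inhibitory G protein genes of the list, with 2 arrestins, were within 2-fold. Of 8 adenylyl cyclase genes, which make cyclic AMP, Adcy7 and Adcy8 were 2.13-fold and 3.13-fold lower in ARC nuclei. Of 6 related leucine-rich repeat receptors, Lhcgr was more than 2-fold higher and Lgr5 2.66-fold lower, and of 5 transmitter genes with at least 20 UMIs, Slc17a8 was 2.76-fold higher (1.62 to 4.89). Either direction past 2-fold was reached by 6.04% of all genes.

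In the KNDy-like cluster, where Rxfp1 was highest, 1 of 8 cyclases was higher and 1 lower. Adcy1 was at 49.6 against 7.41 CPM in the other neurons, 6.69-fold higher (4.76 to 9.27), and Adcy2 was 3.06-fold lower (2.33 to 4.11). No G protein or arrestin gene passed 2-fold, with Gnai1, an inhibitory G protein gene, 1.84-fold higher and Gnal, a stimulatory one, 1.98-fold lower. Lgr5 was at 0 with 95 UMIs in the other neurons. Slc17a6 was 6.22-fold higher, Gad1 2.92-fold and Gad2 2.64-fold lower, and Slc17a8 was at 0 with 61 UMIs elsewhere. The median log2 ratio of the 8 cyclases was 0.00 and that of all genes compared -0.03, and 19% of all genes passed 2-fold in either direction.

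In the dopaminergic-like cluster, where Rxfp2 was highest, Adcy7 was at 49.1 against 9.15 CPM, 5.36-fold higher (3.78 to 7.47), and Adcy8 3.10-fold lower (1.49 to 7.76). The 6 other cyclases and all G protein and arrestin genes were within 2-fold. Lgr6 was 2.32-fold higher from 4 UMIs (0.598 to 6.50), an interval that includes 1, Lgr5 was at 0, and Slc17a6 was 3.46-fold lower. The median log2 ratio of the cyclases was 0.04 and that of all genes -0.08, and 19.2% of genes passed 2-fold in either direction.

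In PVH cluster 12, with the highest PVH level of Rxfp2, no cyclase was higher. Adcy7 was 2.84-fold lower than in the other PVH neurons (1.21 to 8.78) and Adcy1, with 1 UMI, 8.34-fold lower (1.48 to 331). Arrb2, 1 of 2 arrestin genes, was also past 2-fold lower in cluster 12. Of 5 related leucine-rich repeat receptors with at least 20 UMIs, Fshr was past 2-fold higher there and Lgr4, Lgr5 and Lgr6 lower. In PVH cluster 11, with the highest Rxfp3, Adcy2 was at 546 against 184 CPM and Adcy8 at 145 against 69.4 CPM, both more than 2-fold higher, and Adcy6 and Adcy7 were 2.93-fold and 3.29-fold lower. Gnai1 was 3.21-fold lower there (2.07 to 5.27), the only G protein gene of the list past 2-fold in these comparisons. Of the same 5 related receptors, Lgr6 was past 2-fold higher in cluster 11 and Lgr4 and Lgr5 lower. The share past 2-fold in either direction among all genes was 20.2% in cluster 12 and 23.4% in cluster 11.

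Genes whose level followed a receptor most closely across clusters were named by Pearson's r of log2(CPM + 10) among genes with at least 100 UMIs. The clusters share 1 library and n is small, so r is given as a description. For Rxfp1 over the 13 ARC neuron clusters these were Nop56 (0.91), Rybp (0.91), Gpx7 (0.90), Atxn7l1 (0.90) and Zfc3h1 (0.88). For Rxfp2 they were Gm42557 (0.99), Lhx1os (0.95), Lhx1 (0.93), Chrna9 (0.90) and Pkib (0.90) in ARC nuclei and Col12a1 (0.89), Adamtsl3 (0.88), Abca5 (0.87), Naf1 (0.86) and Fbxl2 (0.85) over the 14 PVH clusters. Lhx1os and Lhx1 had r of 0.02 and -0.01 with Rxfp2 over the PVH clusters, Chrna9 0.65, Pkib 0.51 and Gm42557 0.95.

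For Rxfp3 over the PVH clusters the closest were Ikbkg (0.93), Ppm1h (0.91), Adamts12 (0.89), Dnah8 (0.88) and Zadh2 (0.88). Over the ARC clusters the r of these genes, in the same order, was -0.69, 0.07, 0.05, -0.31 and 0.54. Adamts12 is also a neighbour of Rxfp3 in the genome, on chromosome 15 from 11064790 to 11349231 on the plus strand. It lies 26.8 kb from Rxfp3, and another gene lies nearer, at 4.48 kb. Adamts12 was at 120 CPM in cluster 11, where Rxfp3 was highest. In ARC nuclei, where Rxfp3 had 15 UMIs, the closest were A830082K12Rik (0.87), Nr2f2 (0.85), Lypd1 (0.84), Mir124a-1hg (0.84) and Grm4 (0.83). For Rxfp1 in PVH nuclei, with 66 UMIs, they were Paf1 (0.82), Necap2 (0.80), Arhgef10 (0.80), Kif3c (0.80) and 4930415C11Rik (0.79).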

How the data were processed

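The deposited values are UMI counts of each gene in each barcode, without normalization, and counts of 2 hashtags for the same barcodes. The submitters' processing notes name Cell Ranger 5.0 and the header of the matrix names 4.0.0. The members and gene lists were chosen with earlier results of these data known, as were the thresholds that name a cluster.

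Kept nuclei had over 800 but under 5000 genes, at most 12000 counts and at most 1% mitochondrial counts, and genes in at least 3 nuclei were used for clustering. Hashtags were called with HTODemux at a positive quantile of 0.8 in Seurat 5.3.0 (R 4.3.3). Of the 10170 nuclei, 944 called doublets and 2385 without a call were left out of the comparisons, and doublets within 1 hashtag were not looked for. For clustering, counts were scaled to 10000 per nucleus and log-transformed. ARC and PVH nuclei were clustered apart with 2000 variable genes, 30 components, 20 neighbours and Leiden (leidenbase 0.1.32) at a resolution of 0.55. To be named, a cluster had to pass the leading marker of the class and 3 markers in all, each with 1.5-fold or more over the other neurons and 3 UMIs, without more markers of a different class in its 10 leading genes, and a cluster that passed several names was left unnamed. A cluster was non-neuronal when its neuronal markers had a median fold under 0.5 and 3 or more markers of some other cell type passed.

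CPM are UMIs summed over nuclei per 1000000 (Python 3.11.15, scipy 1.17.1). No test was made, since there is 1 pooled sample. A gene counted as past 2-fold when it had at least 20 UMIs over both groups. A level of 0 is given with the limit that 3 counts set. Shares after thinning to 1000 UMIs are averages over all draws, and left out 1 PVH nucleus. The fold step was tested on counts simulated over 32285 genes for the KNDy-like comparison. There 99.5% of 200 genes raised 4-fold were called and 0.145% of unchanged genes. Both sets were limited to genes with at least 5 UMIs expected in the cluster, and no spread between nuclei was drawn. Genes with fewer were also called in the data, so the 0.145% is not a rate for them. The genes named are the 3 receptors, the 38 genes of the relaxin family and coupling list, the class markers and the 5 genes closest to each receptor across clusters. Dock5, Tmem26 and other leading genes serve only to label clusters, and Gm42557 was chosen for its overlap. Of the gene identifiers, 32158 of 32285 were found in GENCODE M21 (GRCm38). Alternatives covered the filters, the hashtag quantile, the clustering, the scale of the level, the most extreme nucleus and classes set by marker UMIs.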

Additional observations from a re-analysis of the deposited data

Results flagged for a closer look

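Nuclei outside the comparisons also held UMIs of every receptor gene. They were flagged for passing the limit that a count of 0 allows. Any gene with more than 3 UMIs passes it, so nothing is read from the flag. In the 944 nuclei called doublets of both hashtags, Rxfp1 was at 25.9 CPM (21.8 to 30.7), Rxfp2 at 12.96 CPM (10.1 to 16.4) and Rxfp3 at 2.67 CPM (1.46 to 4.48). These 3 values lie between those of the ARC and the PVH hashtag. In the 2385 nuclei without a hashtag call, Rxfp1 was at 13.6 CPM (11.3 to 16.2), Rxfp2 at 5.99 CPM (4.51 to 7.80), with an interval that overlaps that of the PVH hashtag, and Rxfp3 at 2.18 CPM (1.33 to 3.36). These nuclei were shallower, with a median of 3926 UMIs.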

How the results depend on the processing

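Of 86 alternatives tried, 80 left the log2 ratio within the counting interval of the reported value. For a cluster taken because it was the highest, and for the KNDy-like and dopaminergic-like values that chose the genes, the sign was set by that choice, so none is read from it. By hashtag no sign changed, over 7 alternatives for each receptor. Rxfp1 in ARC against PVH nuclei was 3.36, and moved to 2.75 at a positive quantile of 0.99. Rxfp2 in dopaminergic-like nuclei was 6.49. It was 7.18 at resolutions of 0.8 and 1.2, 7.17 at 2.0 and 4.77 for nuclei with at least 2 UMIs of Slc6a3 or Th, settings that change which nuclei are counted as dopaminergic. With the receptor genes left out of the clustering it was 6.49 at 0.8 and 6.69 at 1.2, and with Gm42557 also left out 6.46 and 6.14. Except for the 6.49, these pool 2 clusters that took the name, so they do not compare with the 7.18 of 1 cluster. At a quantile of 0.99 it was 7.69, although the level in dopaminergic-like nuclei was lower, at 179 CPM in place of 254 CPM, and the cause was not tested. Rxfp1 in KNDy-like nuclei ran from 3.18 to 3.43 over 16 alternatives, and Rxfp3 in its highest ARC cluster from 1.52 to 3.50, in clusters of 1 to 8 UMIs that were not the same cluster throughout, the highest being a Sim1-like one of 43 nuclei with 2 UMIs at resolutions of 0.8 and above. Alternatives for the PVH clusters, for leaving cluster 2 of either hashtag out of the comparator and for finer clusters without the receptor genes or Gm42557 were chosen after seeing the data, and gave 6.17 to 6.61 for Rxfp2 and 2.93 to 3.21 for Rxfp3 in PVH clusters. ARC cluster 2 had oligodendrocyte markers at 283 CPM, the highest of the ARC neuron clusters, and without it Rxfp1 in KNDy-like nuclei was 3.18, Rxfp2 in dopaminergic-like nuclei 6.75 and Rxfp3 in the VMH-like cluster 2.63 (0.05 to 4.76). Rxfp3 rests on 15 ARC and 60 PVH UMIs, so its intervals by cluster are wide. No paired analysis was possible because the 2 libraries are 1 pooled sample with no replicates.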
